A study of Rattus norvegicus with 6 samples.

Results

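The genes described here are 8 markers of the smooth muscle cell, namely Acta2, Smtn, Myh11, Tagln, Cnn1, Mylk, Actg2 and Des, measured in diaphragm from diabetic and normal rats. They were taken by name, and every probe set that the platform annotation gives to exactly 1 of them was used. Each gene had 1 such probe set, so 8 of 15866 probe sets and 8 of 10411 named genes are described. The diabetic group was 3 male Wistar rats injected with streptozotocin, a toxin of the insulin-producing beta cell, at 60 mg/kg and at 8 weeks of age. The normal group was 3 rats of the same sex, strain and age injected with buffer alone. The costal diaphragm was removed 4 weeks later after an overnight fast, and no rat was given insulin. RNA from the left hemidiaphragm of each was hybridized to 1 Affymetrix RAE 230A array. Diabetic replicate 3 stood apart from the other arrays in its spiked control transcripts and was low for several members, so each member is also given without it.

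Smooth muscle contracts when myosin light chain kinase phosphorylates the regulatory light chain of its myosin, which then pulls on filaments of smooth muscle actin. Calponin, transgelin and smoothelin are actin-associated proteins of these cells, and expression of most such genes depends on serum response factor, which binds a DNA element called the CArG box. In the diaphragm, smooth muscle lies mainly in the walls of small arteries and veins, among a far larger mass of skeletal fibers. Several of the markers are not particular to that cell. Desmin is also the intermediate filament of skeletal fibers, Acta2 is also made by pericytes and myofibroblasts, and Mylk is also made by nonmuscle cells.

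Acta2, the α-actin of vascular smooth muscle, and Smtn, the actin-binding protein smoothelin, were lower in diabetic diaphragm, and no member was higher. Of the 7 members above the filter on dim signals (a mean signal over 105.8), 2 passed limma's test at an adjusted p under 0.05, both lower, and 5 missed it. Over all 9519 probe sets tested, 3.48% were lower and 3.30% were higher by the same rule. At an unadjusted p under 0.05 the members gave the same 2 genes, 28.6% of the 7, against 23.9% of all tested probe sets. Both passing members lay just inside the threshold, and each lost the call when single arrays were left out, as given below. The median log2 fold change was -0.37 over the 7 tested members, beside 0.00339 over all tested probe sets. The members' median moved with single arrays and settings, to -0.16 without diabetic replicate 3, -0.17 without diabetic replicate 1 and -0.54 without diabetic replicate 2, and to -0.22 with the filter at the 60th percentile, which leaves Actg2 out, and -0.25 with an offset of 64. In bulk tissue, fewer cells of a type and less RNA per cell cannot be told apart.

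**Figure D1:**
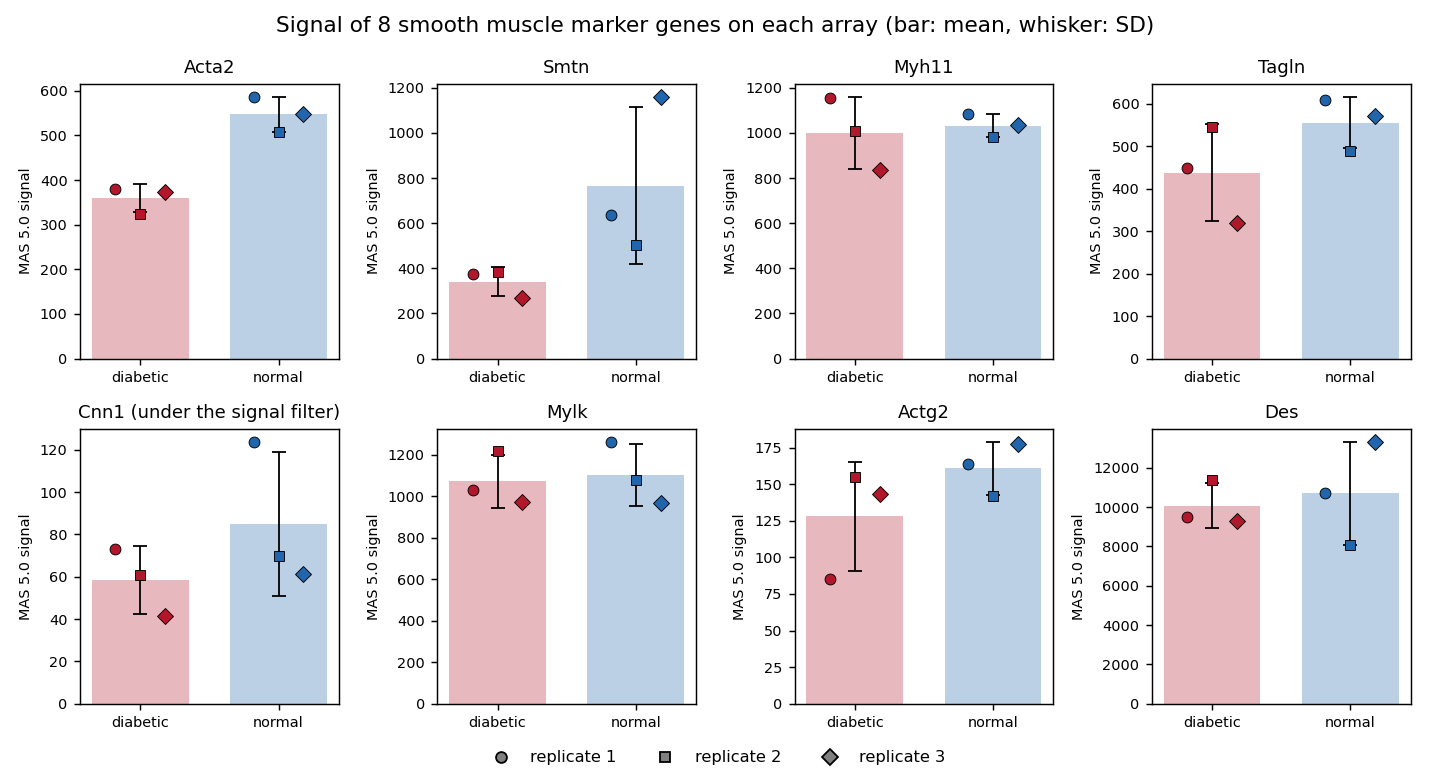
MAS 5.0 signal (linear scale, from 0) of each of the 8 genes, with diabetic rats at left and normal rats at right of each panel. Symbols are single arrays, bars are means and whiskers are SDs of 3 arrays. The groups are separate for Acta2 and Smtn and overlap for the other 6 genes.

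The probe set annotated to Acta2 and no other gene had signals of 380.6, 324.1 and 373.5 in diabetic diaphragm and 586.4, 507.4 and 548.4 in normal diaphragm. Every diabetic array was below every normal array. The group means were 359 ± 30.8 in diabetic and 547 ± 39.5 in normal muscle (SD, n = 3 each), a ratio of 0.657. The log2 fold change was -0.61 ± 0.16 (SE, limma adjusted p = 0.0486). Without any 1 of the 6 arrays the gene stayed lower but did not pass, with adjusted p-values between 0.0727 and 0.148. The diabetic array that weighed most on other members, replicate 3, did not set this one, since the ratio without it was 0.644.

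Acta2 shares 3 further probe sets with Actc1, the cardiac α-actin, and these cannot tell the genes apart. No probe set was annotated to Actc1 alone. The brightest of them had signals of 589.8, 585.7 and 941.6 in diabetic and 1129.5, 1193.6 and 1209 in normal muscle, and passed the test (log2 fold change -0.78 ± 0.20 SE, limma adjusted p = 0.0447). The second gave 466.9, 459.5 and 513.2 in diabetic and 646.2, 742.8 and 1000.3 in normal muscle, and also passed (log2 fold change -0.71 ± 0.19 SE, limma adjusted p = 0.0493). In both, as in the probe set of Acta2 alone, the groups did not overlap. The third gave 133.8, 145.3 and 403 in diabetic and 355, 353.3 and 382.6 in normal muscle. Here diabetic replicates 1 and 2 lay far below the normal arrays while diabetic replicate 3 lay above all of them, and the gene pair did not pass (adjusted p = 0.172). Without diabetic replicate 3 this probe set passed (adjusted p = 0.00806) and its ratio went to 0.384 in place of 0.625. The brightest shared probe set likewise passed without that array (adjusted p = 0.0154) but in none of the other 5 such fits, and the second passed in none of the 6.

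Smtn had signals of 374.8, 381.9 and 266.9 in diabetic diaphragm and 635.5, 502.4 and 1160.8 in normal diaphragm. All 3 diabetic arrays were below all 3 normal arrays, and normal replicate 3 was well above the other normal arrays. The means were 341 ± 64.4 in diabetic and 766 ± 348 in normal muscle (SD, n = 3 each), a ratio of 0.445. The log2 fold change was -1.09 ± 0.29 (SE, limma adjusted p = 0.0488), the largest difference among the tested members. With each array left out in turn it passed only without normal replicate 2 (adjusted p = 0.0307), and otherwise the adjusted p was between 0.0868 and 0.144. The ratio was 0.600 without normal replicate 3 and 0.494 without diabetic replicate 3. Among all tested probe sets, 14.4% had every diabetic array below every normal array, as Acta2 and Smtn did.

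The DNA just before these 2 genes is shown because both genes fell and because the CArG box is the best known control element of the family. The sequences are from RefSeq on build GRCr8 and hold the 150 bases that end at the annotated gene start, at chr1:241172504-241172653 on the minus strand for Acta2 and at chr14:82644515-82644664 on the minus strand for Smtn. Capitals mark CArG-like elements, meaning a CArG box with at most 1 G or C in its core of A and T, a pattern that reads alike on both strands.
Acta2: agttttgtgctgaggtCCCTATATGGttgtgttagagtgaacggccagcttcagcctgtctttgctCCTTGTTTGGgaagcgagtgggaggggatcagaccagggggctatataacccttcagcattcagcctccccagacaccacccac
Smtn: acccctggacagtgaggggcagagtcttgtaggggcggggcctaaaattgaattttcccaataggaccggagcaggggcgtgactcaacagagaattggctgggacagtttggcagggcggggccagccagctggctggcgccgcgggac

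The Acta2 window held 2 such elements, which began 134 and 84 bases before the annotated start. Smtn had none in the 250 bases searched. A window was matched by symbol for 6 of the 8 members (Acta2, Smtn, Cnn1, Mylk, Actg2 and Des), and of these Acta2 was the only one with an element. Only the first window listed under each symbol was read, so any other start of these genes was not examined. Of all 33469 RefSeq windows of that length, 8.08% held at least 1 such element and 0.693% held 2 or more, while 1.5% held a CArG box with no G or C in the core, which no member's window had. A match in the letters is a description and not a measured binding site, and nothing follows from it about the factor.

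Tagln and Cnn1 encode the actin-associated proteins transgelin and calponin. Tagln had signals of 447.4, 545.6 and 319.3 in diabetic and 607.3, 488.5 and 569.9 in normal muscle. Diabetic replicate 2 lay within the normal range and diabetic replicate 3 was the lowest of the 6 arrays. The means were 437 ± 113 in diabetic and 555 ± 60.7 in normal muscle (SD, n = 3 each), and the log2 fold change of -0.37 (95% interval -0.84 to 0.095) did not pass (adjusted p = 0.312 from limma). Without diabetic replicate 3 the log2 fold change was -0.16 (limma adjusted p = 0.687).

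Cnn1 was under the filter on dim signals and was not tested with the others. Its signals were 73, 61 and 41.4 in diabetic and 123.8, 69.8 and 61.1 in normal muscle, with diabetic replicate 3 the lowest and normal replicate 1 the highest. The means were 58.5 ± 15.95 in diabetic and 84.9 ± 34.0 in normal muscle (SD, n = 3 each), and the arrays of the groups overlapped. A 2-sided exact permutation test on log2 signals gave p = 0.4, where 3 arrays against 3 cannot go below 0.1. For Acta2 and Smtn the same permutation test gave this lowest value, p = 0.1. For Cnn1, no limma fit with the filter was made. The ratio of Cnn1 was 0.689 with all arrays, 0.893 without normal replicate 1 and 0.789 without diabetic replicate 3.

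Myh11, the myosin heavy chain of smooth muscle and the marker most particular to that cell, was close to equal in both groups. Its signals were 1155.6, 1010.1 and 834.6 in diabetic and 1082.7, 980.5 and 1034.5 in normal muscle. The diabetic arrays reached both above and below the normal ones. The means were 1000.1 ± 161 in diabetic and 1033 ± 51.1 in normal muscle (SD, n = 3 each), and the log2 fold change was -0.058 with a 95% interval of -0.42 to 0.31 (adjusted p = 0.869 from limma). A fall of the size fitted for Acta2 lies outside that interval. The 95% interval of Acta2 itself, -0.96 to -0.26, overlaps that of Myh11, and the difference between these genes was not tested. Without diabetic replicate 3 the fitted value of Myh11 changed sign, to 0.067.

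Mylk, the kinase that phosphorylates the myosin light chain, had signals of 1030, 1218.1 and 973.7 in diabetic and 1262.9, 1076.9 and 968.1 in normal muscle. The groups overlapped over nearly their whole range, with means of 1074 ± 128 in diabetic and 1103 ± 149 in normal muscle (SD, n = 3 each). The log2 fold change was -0.036 (95% interval -0.40 to 0.33, adjusted p = 0.92 from limma), and it was 0.031 without diabetic replicate 3 and 0.066 without normal replicate 1.

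Actg2, the γ-actin of visceral and some vascular smooth muscle, was dim, near the level of the filter. It had signals of 85.1, 155.1 and 143.6 in diabetic and 163.5, 141.8 and 177.5 in normal muscle, so that diabetic replicate 1, and not replicate 3, was the low array. The means were 128 ± 37.5 in diabetic and 161 ± 17.99 in normal muscle (SD, n = 3 each), and the log2 fold change of -0.37 did not pass (95% interval -0.98 to 0.24, adjusted p = 0.455 from limma). Without diabetic replicate 1 it was -0.10, and without diabetic replicate 3 it was -0.48.

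Des, the intermediate filament protein desmin, had signals of 9501.3, 11368.3 and 9308 in diabetic and 10721.6, 8060.6 and 13299.4 in normal muscle. All diabetic arrays lay inside the range of the normal arrays. The means were 10059 ± 1138 in diabetic and 10694 ± 2620 in normal muscle (SD, n = 3 each), with a log2 fold change of -0.064 (95% interval -0.48 to 0.35, adjusted p = 0.871 from limma). The fitted value was 0.11 without normal replicate 3 and -0.011 without diabetic replicate 3. Signal depends on the probes as well as on the RNA, so the high signal of Des does not place it above Acta2 or Myh11 in amount.

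**Figure D2:**
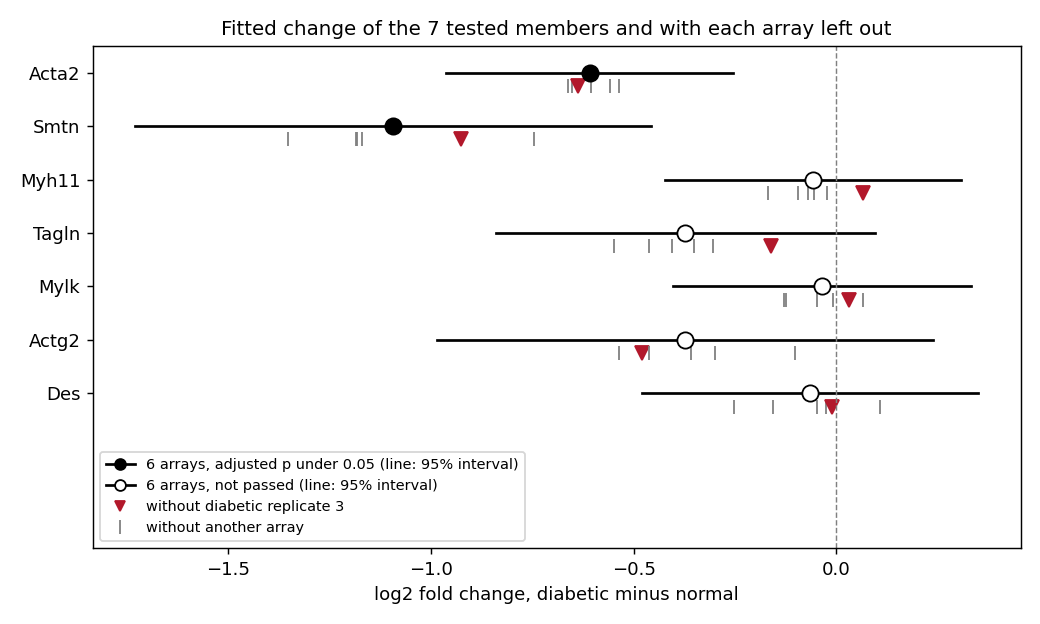
Fitted log2 fold change (diabetic minus normal, x axis) of the 7 tested members, in rows. Circles are fits of all 6 arrays with 95% intervals, filled for Acta2 and Smtn, which passed at an adjusted p under 0.05; marks under each row are fits with 1 array left out. Without diabetic replicate 3, Myh11 and Mylk lie above 0 and Tagln moves to -0.16.

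Fitted values of all 7 tested members were below 0, as were 49.6% of all tested probe sets, but those of Myh11, Mylk and Des changed sign with single arrays left out. One diabetic array took part in this. Diabetic replicate 3 had the lowest signal of all 6 arrays for 4 members, Smtn, Myh11, Tagln and Cnn1, and the lowest of the 3 diabetic arrays for 6, with Mylk and Des added. Over all tested probe sets it was the lowest of 6 for 22.9% and the lowest of its group for 39.4%. Its deviation from the diabetic mean on the log2 scale was -0.46 for Cnn1, -0.42 for Tagln, -0.34 for Smtn, -0.25 for Myh11, -0.13 for Mylk and -0.11 for Des, against 0.059 for Acta2 and 0.21 for Actg2. This array also stood apart in the 45 probe sets of spiked control transcripts, with a median level of 1.96 set against the geometric mean over the 6 arrays, against 0.833 to 0.889 on the other 5. The part of this difference in the members' values was not tested. Normal muscle had its own low array, replicate 2, which was lowest of the normal arrays for 6 of the 8 members, against 33.4% of all tested probe sets.

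**Figure D3:**
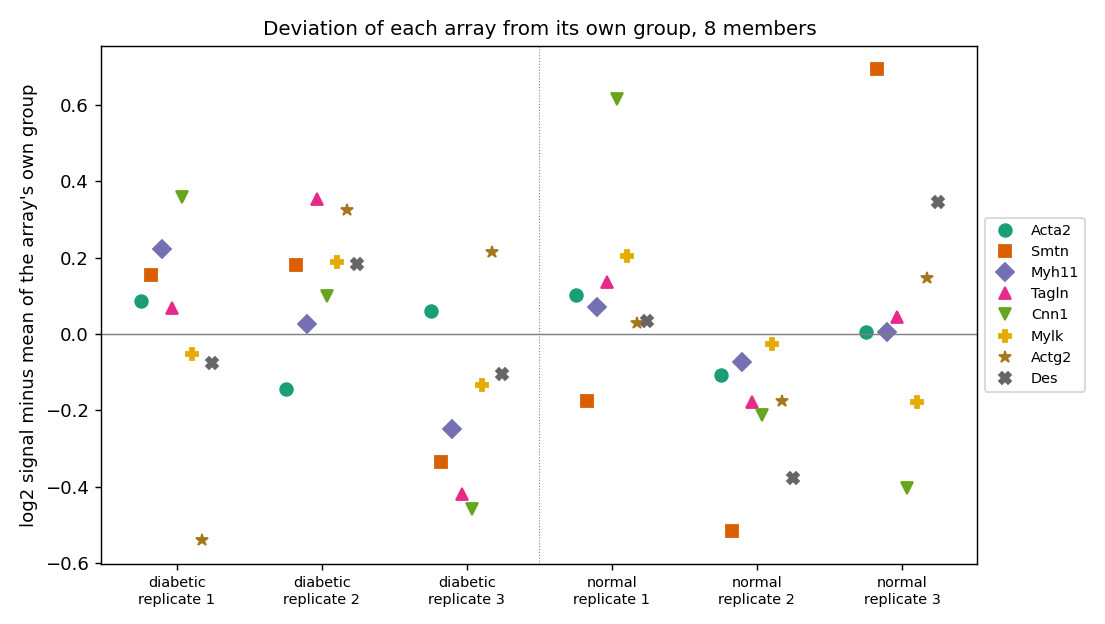
Log2 signal of each array minus the mean of its own group (y axis) for the 8 members, with diabetic arrays at left and normal arrays at right. Each symbol is a gene. On diabetic replicate 3, 6 of the 8 genes lie under the line, and on normal replicate 2 all 8 do.

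Other genes of the smooth muscle contractile pathway were read from a list of 50 genes, of which 40 had a probe set of their own and 33 a tested one. Of their 54 tested probe sets, 1 passed limma's test as higher and 2 as lower, and 51 missed it. Over all tested probe sets, 3.30% were higher and 3.48% were lower. The list's median log2 fold change was -0.033, and 25.9% of its probe sets had an unadjusted p under 0.05, against 23.9% of all. Many of these genes are also active in skeletal fibers.

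Among the 23 tested probe sets of thin filament and anchorage genes, Tpm1 and Pdlim7 each had 1 that was lower. Tpm1, an α-tropomyosin of striated and smooth muscle, had signals of 13331.5, 12331.6 and 12664.7 in diabetic and 19155.6, 16306.8 and 19916.2 in normal muscle on the probe set that passed, and the groups did not overlap (log2 fold change -0.53 ± 0.13 SE, limma adjusted p = 0.0422). The other 3 tested probe sets of Tpm1 had log2 fold changes of -0.47, -0.38 and -0.30 and did not pass. Pdlim7, an actin-associated LIM protein, had signals of 1096, 978.1 and 1040.9 in diabetic and 2018, 1302.1 and 2473.1 in normal muscle (log2 fold change -0.85 ± 0.22 SE, limma adjusted p = 0.0463). On its second probe set the log2 fold change was -0.41, which missed the threshold (limma adjusted p = 0.351). Each passed in 1 of 6 fits with an array left out. Cald1, the actin-binding protein caldesmon, went the other way without passing, with a log2 fold change of 0.24 and 0.29 on its tested probe sets. Lmod1 was lower with separate groups and did not pass either (log2 fold change -0.92 ± 0.27 SE, limma adjusted p = 0.0675). Fitted values were below 0 for 13 of the 23 probe sets.

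None of the 10 tested probe sets of myosin light chains and the enzymes that set their phosphorylation passed, and neither did any of the 10 of receptors and channels. Myl9, the regulatory light chain of smooth muscle myosin, had signals of 385.5, 411.7 and 264.9 in diabetic and 500.2, 396 and 455.7 in normal muscle. As for Tagln, diabetic replicate 3 was the lowest of the 6 and the groups overlapped (log2 fold change -0.37 ± 0.20 SE, limma adjusted p = 0.302). Ppp1r14a was under the filter and not tested. Its signals were 49.3, 69.7 and 28.3 in diabetic and 189.1, 114.7 and 102.3 in normal muscle, without overlap. Among all tested probe sets, 14.4% had every diabetic array below every normal array. Of the 10 tested probe sets of light chains and their enzymes, 4 had fitted values below 0.

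Of the 11 tested probe sets of serum response factor and its cofactors, 1 was higher. This was Fhl2, a LIM protein that binds serum response factor, with signals of 311.2, 325.3 and 318.2 in diabetic and 153.5, 186.3 and 211.5 in normal muscle and no overlap (log2 fold change 0.80 ± 0.19 SE, limma adjusted p = 0.0312). It passed in 1 of 6 fits with an array left out, and a second probe set was 1.21-fold higher and did not pass (adjusted p = 0.408). Srf itself had signals of 931.4, 835.5 and 742.1 in diabetic and 1178.3, 980.7 and 1738.8 in normal muscle on its brighter probe set, which did not pass although the groups were separate (log2 fold change -0.60 ± 0.21 SE, limma adjusted p = 0.123). Its dimmer probe set was level, with a ratio of 0.999. Probe sets of these lists separated the groups in both directions without passing, for example Itpr1 as higher (ratio 1.41) and Tpm2 as lower (ratio 0.743). Cald1, Lmod1, Myl9, Ppp1r14a, Srf, Itpr1 and Tpm2 were named after their values were seen.

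Markers of neighboring cells were read on the same arrays, with sums over all probe sets of a list. Of 10 tested probe sets of pericytes, the contractile cells of capillaries, 1 was lower and 9 did not pass, with a summed signal of 2972 to 4319 in diabetic and 4793 to 5481 in normal muscle. The lower one was Rgs5, a G-protein regulator of pericytes and arterial smooth muscle, with signals of 382.8, 393.1 and 341.9 in diabetic and 842, 689.6 and 616.1 in normal muscle (log2 fold change -0.93 ± 0.17 SE, limma adjusted p = 0.0115). Unlike Acta2 and Smtn it passed with each array left out, with a highest adjusted p of 0.047. Of the 10, 9 had fitted values below 0 and the list's median log2 fold change was -0.45. They belonged to 7 genes, with Abcc9 and Mcam counted more than once. Over all tested probe sets, 49.6% had fitted values below 0 and 3.48% were called lower. The groups were separate for Rgs5, the brightest probe set of Abcc9 and the brighter one of Mcam. They overlapped for the other pericyte probe sets, among them Pdgfrb, which had a ratio of 1.18. Abcc9, Mcam and Pdgfrb were named after their values were seen.

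Of 11 tested fibroblast probe sets, 6 were lower and none was higher, with a summed signal of 29602 to 32516 in diabetic and 56514 to 59381 in normal muscle. These 6 belonged to the collagens Col1a1, Col1a2 and Col3a1 and to Lum, a proteoglycan that binds them, with log2 fold changes between -1.90 and -1.41, and all 6 passed with each array left out. The other 7 fibroblast probe sets, 5 of them tested, did not separate the groups, and their sum was 18583 to 22626 in diabetic and 20519 to 22389 in normal muscle. Of 9 endothelial probe sets, Kdr, the receptor of vascular endothelial growth factor, was higher (log2 fold change 0.66 ± 0.17 SE, limma adjusted p = 0.0464) and Tie1, another receptor of these cells, was lower (-0.74 ± 0.17 SE, limma adjusted p = 0.0309), and neither passed with any array left out. The summed endothelial signal was 4824 to 5668 in diabetic and 4286 to 4885 in normal muscle. All 20 probe sets of 14 skeletal muscle markers were above the filter, and 2 of them were lower, Myh4, the fastest myosin heavy chain, and Mb, the oxygen store myoglobin, with a summed list signal of 269784 to 374312 in diabetic and 312022 to 364881 in normal muscle. Myh4 passed in all 6 fits with an array left out, while Mb passed in 1 of 6, with a highest adjusted p of 0.132 from limma. None of 5 tested mesothelial and 4 tested Schwann cell probe sets passed. The pericyte sum and the sum of all fibroblast probe sets were lower on every diabetic array than on any normal array. So were Acta2 and Smtn. For fibroblasts this came through the collagens and Lum. The largest single part of the pericyte sum was the brightest probe set of Abcc9, which did not pass (limma adjusted p = 0.0867). Its signals were 1387.3, 1487.6 and 1061 in diabetic and 1776.6, 1891 and 1946.1 in normal muscle. Most single pericyte probe sets overlapped between the groups. The part of these cells in the values of Acta2 and Smtn was not tested.

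**Figure D4:**
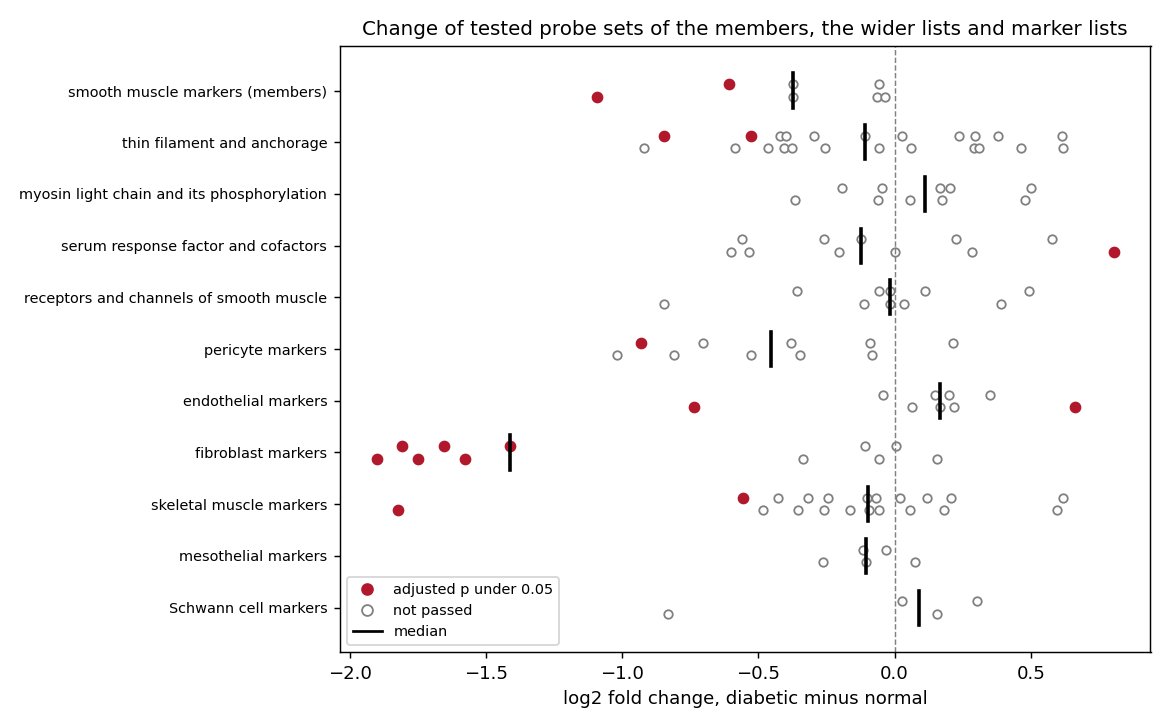
Fitted log2 fold change (diabetic minus normal, x axis) of every tested probe set of the members, the wider smooth muscle lists and the marker lists of other cells, in rows. Filled points passed at an adjusted p under 0.05 and black bars are medians. The 2 filled members are Acta2 and Smtn, and the 6 filled fibroblast points lie between -1.90 and -1.41.

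The genes most like the members were sought among 8084 tested probe sets of other genes, by the Pearson correlation of their log2 signal over the 6 arrays with the mean of the standardized signals of the 7 tested members. Likeness was highest for Uqcc4 (0.989), Dhrs3 (0.986), Wars1 (0.981), Ube2k (0.980) and Rragd (0.979), picked as the top of many, and these values are a description. The members differed among themselves, with correlations from -0.389 for Myh11 and Actg2 to 0.778 for Acta2 and Smtn. A gene like their mean need not be like each of them. The members' mean pattern was high on normal replicates 1 and 3, at 0.78 and 0.69 standard deviations, and low on diabetic replicate 3, at -0.98, with normal replicate 2 at -0.15 below diabetic replicate 2 at 0.10. As a set, the members therefore overlapped between the groups, although Acta2 and Smtn alone did not.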

How the data were processed

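Total RNA of 6 rats was measured on 1 array each. The deposited values are MAS 5.0 signals, which the authors computed per probe set as linear intensities brought to one scale on each array. For the target and settings of that step the sources used here give nothing. Present and absent calls and the BAM test of the study were not used here.

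Signals were floored at 1, turned into log2 values and not normalized again. The 57 control probe sets and those at or below the 40th percentile of mean signal (105.8) were left out, which left 9519. They entered a linear model (limma 3.58.1, R 4.3.3) with lmFit and eBayes (trend in the variance prior) and Benjamini-Hochberg adjustment, and the procedure was tested on simulated data. Ratios are those of group mean signals. With 3 arrays per group and 4 residual degrees of freedom, the number of arrays limits the precision. Median signals per array were 167.1 to 180.5.

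Genes were named through the platform annotation. All 8 members were named, with genes of the other lists that passed (up to 5 per list) and the 5 genes most like the members. A few more were named after their values were seen, as said where they appear. The members and lists were chosen with earlier results of these data known. Promoter sequences are RefSeq's on GRCr8. Alternatives were quantile or median normalization, offsets of 16 and 64, other filters (none or the 60th percentile), no trend, weights per array, a block for the replicate number and each array left out.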

Additional observations from a re-analysis of the deposited data

How the results depend on the processing

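Acta2 and Smtn were the 2 members that were lower with all arrays, and this count was not stable. It was 2 after quantile normalization, with an offset of 16 or 64, with the filter at the 60th percentile and with array weights. It was 1 with the same median on every array (Smtn), and 0 without a filter on dim signals, without a trend in the variance prior and with the replicate block. With each array left out in turn it was 0 to 1, where fewer arrays were fitted. Over these 15 alternatives the adjusted p from limma ranged from 0.0312 to 0.148 for Acta2 and from 0.0307 to 0.144 for Smtn, and both stayed below 0 in every one. No member was higher under any of the 15. Signs turned for Myh11 (0.067) and Mylk (0.031) without diabetic replicate 3, for Mylk (0.066) without normal replicate 1 and for Des (0.11) without normal replicate 3. With each array left out, values ran from -0.17 to 0.067 for Myh11, from -0.13 to 0.066 for Mylk and from -0.25 to 0.11 for Des. Of the wider list, the higher count of 1 was 0 without a filter and with the replicate block, and 0 to 1 with each array left out. It was also 0 with the filter at the 60th percentile, which leaves the passing Fhl2 probe set out. The lower count of 2 was 3 with array weights and 1 with the same median on every array. It was 0 without a filter, without a trend and with the replicate block, and 0 to 2 with each array left out. Of the other cells' markers, the higher count of 1 was 0 without a filter, without a trend, with the replicate block and with each array left out. Over all probe sets, 314 were higher and 331 lower, against 200 higher without a filter, 162 higher and 170 lower with the replicate block, and 133 to 226 higher and 179 to 235 lower with each array left out. The lowest count of higher ones was without diabetic replicate 3. The labels number the arrays within each group and do not say whether equal numbers share anything more. Same-numbered arrays had correlations of 0.098, -0.20 and -0.068 of their deviations from the group means, and not every array was closest to its own number. The cause of the other changes was not tested. With 3 arrays per group, a member that did not pass is not shown to be unchanged, and Cnn1 and Actg2 were too dim for precise ratios.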
